A study of Mus musculus with 15 samples.

Results

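The genes described here are p53 (Trp53 in the mouse) and 31 genes that p53 is known to control or that control p53, 32 genes in all. They were chosen by name: every non-control probe whose gene name equalled one of these symbols, or an older symbol of it, was taken. This gave 40 probes of the 39429 non-control probes on the array, for 32 of the 30818 gene names they carry, and no older symbol was needed. By role they fall into p53 and its feedback regulators (3 genes), arrest and stress signalling (8), repair and nucleotide supply (5), apoptosis (12) and other targets (4).

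RNA was measured in 4 groups of mouse cultures: Cbx7-depleted embryonic stem (ES) cells, labelled KD33 (4 arrays), control ES cells (3 arrays), Cbx7-depleted embryoid bodies, labelled EB9 KD33 (4 arrays), and control embryoid bodies, labelled EB9 (4 arrays). Embryoid bodies are aggregates in which ES cells differentiate into many cell types. Cbx7 is a chromodomain protein of the Polycomb group, whose complexes silence developmental genes, and the study compared the roles of such Cbx proteins in ES cells. The labels give the controls no treatment, and the design text names the ES controls shCtr. A single depletion, KD33, was used, and the labels used here do not say from which ES line the cells came, whether a group is 1 clone, or how the embryoid bodies were made; the replicates are labelled biological.

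p53 is a transcription factor that is held at low levels by the ubiquitin ligase Mdm2 and held inactive by the related protein Mdm4. DNA damage and other stresses release it, and it then raises genes that stop the cell cycle, repair DNA or start apoptosis, and also Mdm2 itself, which closes a feedback loop. ES cells are known for abundant p53 and for a ready apoptotic response. p53 binds DNA as a tetramer on a pair of 10-base half-sites, each built around the core CNNG.

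Promoter sequences from RefSeq (mouse build GRCm38.p6), reaching 250 bases before and 50 after each annotated start, were found for 24 of the 32 genes (34 windows). An exact match to the p53 half-site consensus, a palindrome that reads the same on both strands and was searched alone with no other motif, lay in the windows of 10 of the 24 genes (41.67%), against 9.55% of all 27025 genes with a window. A pair of half-sites with at most 2 mismatches in all and a spacer of at most 13 bases lay in 5 of the 24 genes (20.83%), against 4.71% of all genes. These are Ccng1, Bax, Ckap2, Gadd45a and Sesn1. The genes were chosen as p53 targets, so this difference describes the choice. A match is a run of letters and no measured binding site, and the windows reach no further than 50 bases into each gene. The 250 bases before the start are shown for 4 genes whose RNA differed between depleted and control ES cells: Ccng1, with the pair that had the fewest mismatches (capitals, 195 bases before the start), Bax, with a pair separated by 1 base (capitals, 201 before the start), Mdm2, with a half-site (capitals, 186 before the start), and Phlda3, the member with the largest difference, whose window held no match.
Ccng1, chr11:40755287-40755536, minus strand: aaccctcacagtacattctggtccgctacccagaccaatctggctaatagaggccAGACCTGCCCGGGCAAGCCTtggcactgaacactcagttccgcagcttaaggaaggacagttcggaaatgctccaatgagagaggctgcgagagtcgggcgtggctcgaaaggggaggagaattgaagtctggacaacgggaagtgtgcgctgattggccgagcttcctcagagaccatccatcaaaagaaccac
Bax, chr7:45466899-45467148, minus strand: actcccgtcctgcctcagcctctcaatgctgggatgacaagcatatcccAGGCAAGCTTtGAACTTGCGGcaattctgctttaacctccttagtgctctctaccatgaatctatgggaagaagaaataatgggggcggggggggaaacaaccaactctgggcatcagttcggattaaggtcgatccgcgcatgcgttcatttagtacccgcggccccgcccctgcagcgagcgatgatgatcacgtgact
Mdm2, chr10:117710759-117711008, minus strand: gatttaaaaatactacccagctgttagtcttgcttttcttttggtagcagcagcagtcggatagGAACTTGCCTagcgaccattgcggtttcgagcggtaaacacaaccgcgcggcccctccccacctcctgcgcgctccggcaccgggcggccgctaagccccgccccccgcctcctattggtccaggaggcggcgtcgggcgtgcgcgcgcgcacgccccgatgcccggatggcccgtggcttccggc
Phlda3, chr1:135765835-135766084, plus strand: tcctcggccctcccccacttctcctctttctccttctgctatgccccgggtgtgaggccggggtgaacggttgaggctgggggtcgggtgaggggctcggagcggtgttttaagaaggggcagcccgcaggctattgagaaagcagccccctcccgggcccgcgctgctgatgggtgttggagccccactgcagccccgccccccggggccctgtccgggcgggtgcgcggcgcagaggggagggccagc

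Besides Mdm2, the genes with an exact half-site but no pair were Trp53 (GGACTTGCCC, 75 bases before its start), Ei24 (GGGCATGCCC, 10 bases before), Polk (GAACTAGCCT, 231 bases before 1 of its 2 starts) and Aen (GGGCTTGTCC, 121 bases before 1 of its 2 starts). The half-site was found in 5 of the 10 genes with a window that were lower in depleted ES cells, in 1 of 2 that were higher and in 4 of 11 that were not called different. The pair was found in 1 of 10, 1 of 2 and 3 of 11 of these genes, in the same order. Neither split was tested. The gene p53 itself was read by 1 probe at chr11:69404204-69404263 (build mm9 in the scanner files, plus strand), in the coding sequence of the carboxy-terminal region, shown here because the Trp53 values rest on it alone.
Trp53 probe: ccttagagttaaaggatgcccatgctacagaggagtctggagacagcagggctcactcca

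Each array was a 1-colour Agilent array, and values are log2 signals minus the log2 of the 75th percentile on that array, so a value of 0 is the level of the 75th-percentile feature. No feature was saturated, and 62.5% to 75.4% of non-control features were well above background. Of the 40 probes, 37 passed the filter on dim probes, and 31 of the 32 genes could be tested; all 31 were well above background on all 15 arrays. Eda2r, a receptor of the tumour necrosis factor receptor family, was not well above background on any array with either of its probes and was not tested. The arrays lay on 4 slides with each group at its own slide position, and what position adds cannot be told apart from the group. Cbx7 itself was read by a pair of dim probes. The first was well above background on 2 of 4 depleted ES arrays, all 3 control ES arrays and 2 of 4 arrays of each EB9 group. It had a log2 difference of -1.91 ± 1.25 (SE, adjusted p = 0.305, limma) between depleted and control ES cells. With slide as a block it differed by -1.41 ± 0.17 (adjusted p = 0.000242), a fit that also used depleted ES arrays not above background. On slides 2 and 3, where both ES arrays were above background, it was lower in depleted ES cells by log2 differences of -1.30 and -1.57; on slide 1 the depleted array was not above background, so only a direction can be read there. In EB9 this probe differed by -0.36 and -0.52 on the same 2 slides. The second probe, above background on all arrays, differed by -0.13 ± 0.24 in ES cells (adjusted p = 0.761) and by -0.16 ± 0.22 in EB9 (adjusted p = 0.708), and also with slide as a block neither was called (adjusted p = 0.882 and 0.421). No probe gave a called Cbx7 difference in EB9, so there the word depleted rests on the labels. The ES controls, numbered 2, 3 and 4 in the labels, lay on slides 1, 2 and 3, and on the other slides and groups slide and number were the same.

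In Cbx7-depleted ES cells 12 of the 31 tested genes were lower than in control ES cells and 3 were higher. The genes that fell are Mdm2, Ccng1, Btg2, Polk, Bbc3, Ei24, Aen, Apaf1, Trp53inp1, Phlda3, Zmat3 and Cd82, and the genes that rose are Xpc, Bax and Dcxr. A gene was called different at a Benjamini-Hochberg adjusted p under 0.05 in limma, adjusted over all 21184 genes tested. In that comparison 38.5% of all genes were called, 16.5% lower and 22% higher. With the values normalised as in the authors' table, Polk, Ei24 and Cd82 were not called (adjusted p = 0.0788, 0.170 and 0.0614). In those values Trp53 was called lower (-0.32, adjusted p = 0.0411) and Ddb2 higher (0.21, adjusted p = 0.0207). The median log2 difference was -0.19 over the members and 0.04 over all genes. In bulk RNA, fewer cells that express a gene and less RNA per cell cannot be told apart. The largest change was that of Phlda3, 2.06-fold lower, and no other called member reached 2-fold.

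Among p53 and its regulators, Trp53 had log2 values of -2.99, -3.26, -3.17 and -2.98 in depleted ES cells, against -2.63, -2.72 and -2.76 in control ES cells. All 4 depleted arrays lay below all 3 controls, but the difference of -0.40 ± 0.21 (SE) was not called (adjusted p = 0.154). The 4 groups share 1 estimate of the spread, and the SD of Trp53 was 0.50 in depleted EB9, against 0.14 in depleted ES cells. Without the first depleted EB9 array the same difference had an adjusted p of 0.00484, and with the 2 ES groups alone 0.00953. With slide as a block it was not called (adjusted p = 0.123). It was called lower with the values normalised as in the authors' table (-0.32, adjusted p = 0.0411) and with array weights (-0.30, adjusted p = 0.0356). In all, 5 of 25 alternative fits called it, and the adjusted p reached 0.289. Mdm2, the ligase that p53 itself induces, had 3.52, 3.76, 3.66 and 3.59 in depleted ES cells, against 4.16, 4.20 and 4.23 in control ES cells. The groups did not overlap, and Mdm2 fell by 0.57 ± 0.06 on the log2 scale (adjusted p = 1.64e-05). Mdm4, the inhibitor with no ligase activity of its own, had -3.22, -3.42, -3.37 and -3.11 in depleted ES cells, against -3.12, -3.27 and -3.20 in control ES cells. These values overlapped (difference -0.09 ± 0.09, adjusted p = 0.536).

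**Figure D1:**
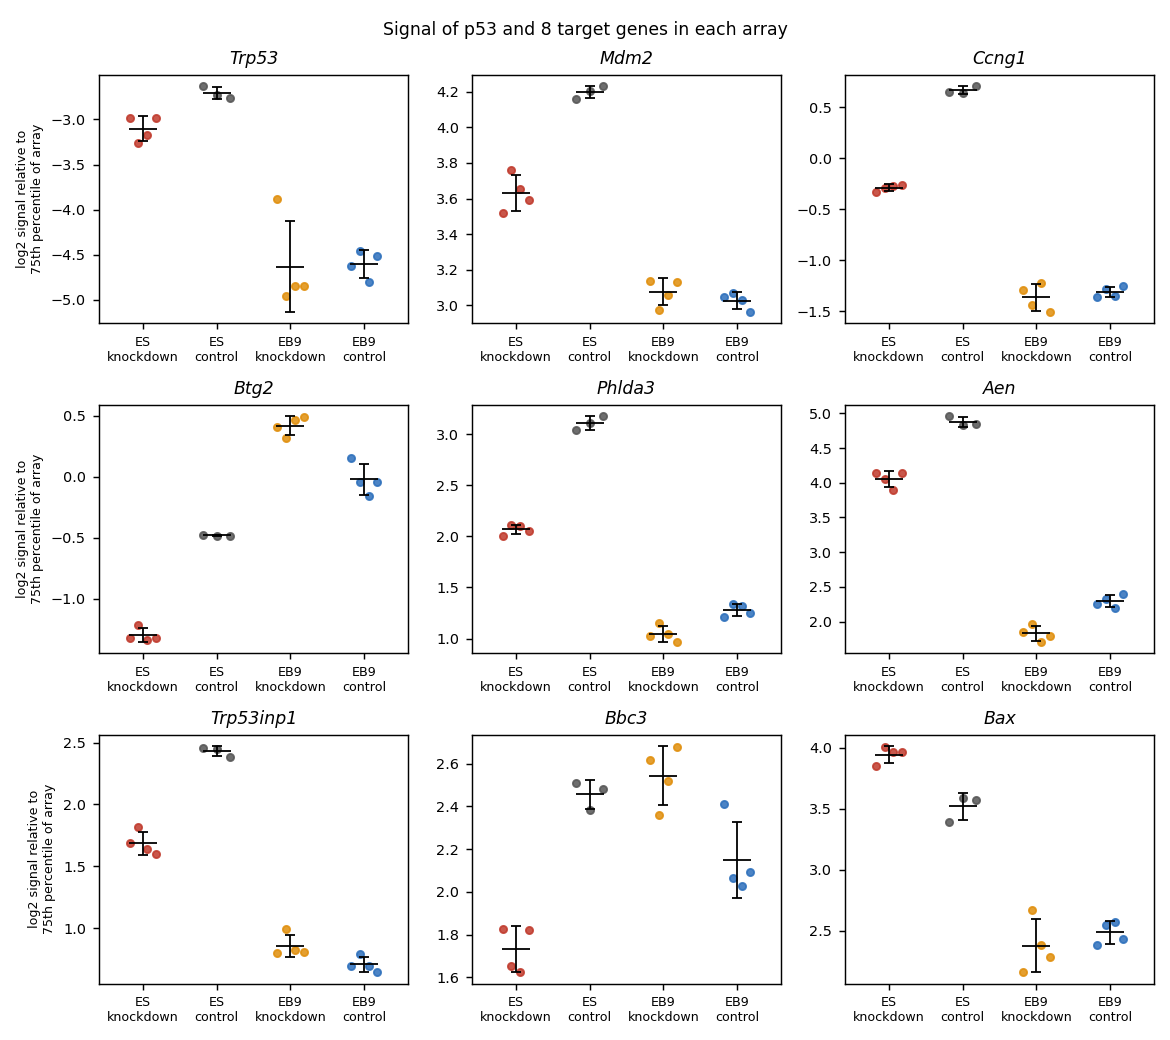
Log2 signal over the array's 75th percentile (vertical axis) of Trp53 and 8 targets in each of the 4 groups (horizontal axis); points are arrays, and bars are the mean and SD. In ES cells Mdm2, Ccng1, Btg2, Phlda3, Aen, Trp53inp1 and Bbc3 lay lower on every depleted array than on every control array and Bax higher, while in EB9 only Btg2 and Trp53inp1 (higher) and Aen and Phlda3 (lower) were free of overlap among these 9.

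Of the 8 arrest and stress genes, 2 fell in depleted ES cells and none rose, where 16.5% of all genes fell and 22% rose. The median log2 difference of the 8 was -0.05. Ccng1 encodes cyclin G1, a cyclin-like protein that brings phosphatase 2A to Mdm2. It had -0.33, -0.29, -0.27 and -0.26 in depleted ES cells, against 0.65, 0.64 and 0.71 in control ES cells, 1.94-fold lower (log2 difference -0.95 ± 0.06, adjusted p = 3.64e-07). The gap between the groups was many times the spread within either. Btg2, an antiproliferative cofactor of the CCR4-NOT deadenylase, had -1.32, -1.21, -1.34 and -1.33 in depleted ES cells, against -0.47, -0.48 and -0.48 in control ES cells, 1.76-fold lower (-0.82 ± 0.07, adjusted p = 1.97e-06). The SD of the 3 controls was 0.0054. The other 6 were not called. Gadd45a, a stress sensor that binds PCNA and kinases, differed by 0.12, the polo-like kinases Plk2 and Plk3 by 0.19 and 0.22, and the sestrins Sesn1 and Sesn2, which restrain mTORC1, by 0.13 and -0.24. Ckap2, a spindle protein, differed by -0.21 (adjusted p = 0.0954) and was called with slide as a block (-0.19 ± 0.06, adjusted p = 0.0362). Plk3 was called without the second EB9 control array (adjusted p = 0.0223).

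Of the 5 repair genes, 1 rose and 1 fell in depleted ES cells, where 22% of all genes rose and 16.5% fell. Xpc, the damage sensor of global nucleotide excision repair, had 2.00, 1.80, 1.82 and 1.91 in depleted ES cells, against 1.67, 1.54 and 1.50 in control ES cells (difference 0.32 ± 0.08, adjusted p = 0.007). Its groups did not overlap. Polk, a translesion DNA polymerase, had -2.76, -3.23, -2.95 and -2.79 in depleted ES cells, against -2.47, -2.60 and -2.56 in control ES cells (-0.39 ± 0.14, adjusted p = 0.0428). That call was lost in 8 of the 15 fits that leave out an array, where the adjusted p reached 0.121 (without the ES control numbered 2), and its second probe differed by -0.15 (adjusted p = 0.380). Ddb2, which finds ultraviolet damage with Ddb1, had 0.24, -0.02, 0.09 and 0.26 in depleted ES cells, against 0.07, -0.20 and -0.04 in control ES cells, and the groups overlapped (0.20 ± 0.08, adjusted p = 0.0742). With slide as a block Ddb2 was called (0.18 ± 0.06, adjusted p = 0.0237), and also without the depleted array numbered 2 (adjusted p = 0.0284) or the control numbered 2 (adjusted p = 0.0401). Ercc5, an excision repair endonuclease, differed by 0.12, and Rrm2b, the p53-inducible subunit of ribonucleotide reductase, by 0.08; neither was called.

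Of the 11 tested apoptosis genes, 6 fell and 1 rose in depleted ES cells, with a median log2 difference of -0.19. Over arrest and repair genes together 3 of 13 fell and 1 rose, with a median of 0.12. Over all genes 16.5% fell and 22% rose, with a median of 0.04. Phlda3, a pleckstrin-homology protein that blocks Akt, had 2.01, 2.11, 2.10 and 2.05 in depleted ES cells, against 3.04, 3.11 and 3.18 in control ES cells (-1.04 ± 0.06, adjusted p = 6.7e-08). Aen, an exonuclease that cuts DNA in apoptotic cells, had 4.14, 4.05, 3.89 and 4.14 in depleted ES cells, against 4.96, 4.83 and 4.84 in control ES cells, 1.77-fold lower (-0.82 ± 0.08, adjusted p = 6.11e-06). Within slides Aen differed by -0.95 to -0.78, and its second probe, which shares most of its target with the first, moved the same way. Trp53inp1, a nuclear body protein that aids p53 phosphorylation, had 1.68, 1.81, 1.64 and 1.60 in depleted ES cells, against 2.46, 2.45 and 2.39 in control ES cells, 1.68-fold lower (-0.75 ± 0.06, adjusted p = 2.6e-06). Bbc3 encodes Puma, a BH3-only protein that neutralises Bcl2 relatives. It had 1.83, 1.65, 1.62 and 1.82 in depleted ES cells, against 2.51, 2.38 and 2.48 in control ES cells, 1.65-fold lower (-0.73 ± 0.10, adjusted p = 0.000107).

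The other 2 apoptosis genes that fell did so by less. Apaf1, the scaffold of the apoptosome, was lower by a log2 difference of -0.27 ± 0.07 (adjusted p = 0.0059), with depleted arrays between -1.03 and -0.85 and controls between -0.73 and -0.59. Ei24, an endoplasmic reticulum protein of autophagy, was lower by -0.19 ± 0.07 (adjusted p = 0.0461), and that call was lost in 11 of the 15 fits that leave out an array (adjusted p up to 0.151, without the ES control numbered 3). Bax, which opens the outer mitochondrial membrane, moved the other way. Its depleted arrays lay between 3.85 and 4.01 and its controls between 3.39 and 3.59, 1.34-fold higher in depleted ES cells (0.42 ± 0.10, adjusted p = 0.00542). The death receptor Fas had -3.77 to -3.72 in depleted ES cells, against -4.33 to -4.28 in control ES cells, without overlap and not called (0.55 ± 0.22, adjusted p = 0.0656). It was called with slide as a block (adjusted p = 0.0366) and without the depleted EB9 array numbered 1 or 2 (adjusted p = 0.0216 and 0.0131). Pmaip1, which encodes the BH3-only protein Noxa, differed by 0.14, the death receptor Tnfrsf10b by 0.03 and the junction protein Perp by 0.02, and none of the 3 was called.

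Among the other targets, Zmat3, a zinc finger protein that binds RNA, had 0.25, 0.21, 0.48 and 0.37 in depleted ES cells, against 0.80, 0.87 and 0.89 in control ES cells (-0.52 ± 0.15, adjusted p = 0.0153, and 0.0501 without the ES control numbered 4). Dcxr, a carbonyl reductase of sugar metabolism, had -1.04, -1.28, -1.15 and -1.11 in depleted ES cells, against -1.56, -1.68 and -1.59 in control ES cells, 1.38-fold higher (0.46 ± 0.09, adjusted p = 0.00133). Cd82, a membrane tetraspanin, had 0.33, 0.25, 0.22 and 0.30 in depleted ES cells, against 0.73, 0.62 and 0.67 in control ES cells (-0.40 ± 0.13, adjusted p = 0.0316). None of the 3 overlapped between groups. The Cd82 call was lost without any one of 6 ES arrays (adjusted p 0.0554 to 0.0897, the highest without the control numbered 2), and its other 2 probes differed by -0.22 and -0.45 without a call. Gdf15, a secreted stress cytokine, differed by -0.26 (adjusted p = 0.340).

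In all, 20 of the 31 genes had no overlap between depleted and control ES arrays, 15 lower and 5 higher, where 49.6% of all genes had none. All 15 called genes are among these 20, so the 3 slides that hold both groups could only give the same sign for each. Within slides Phlda3 differed by -1.07 to -1.01, Ccng1 by -0.98 to -0.93 and Bax by 0.39 to 0.45.

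**Figure D2:**
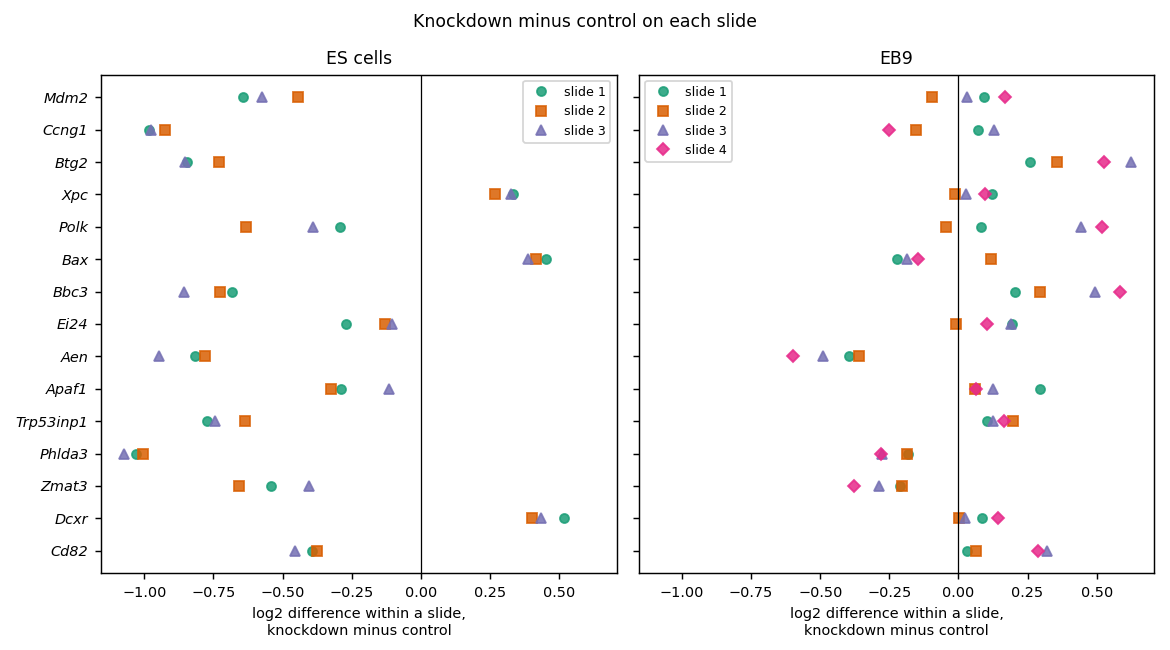
Log2 difference, depleted minus control, on each slide (horizontal axis) for the 15 genes called in ES cells (rows), in ES cells (left, 3 slides) and EB9 (right, 4 slides); each symbol is 1 slide. In ES cells all 3 slides lie on the same side of 0 for every gene, as they must where the groups do not overlap. In EB9 all 4 slides lie on one side for Btg2, Bbc3, Trp53inp1, Dcxr, Apaf1 and Cd82 (higher) and Aen, Phlda3 and Zmat3 (lower).

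In Cbx7-depleted EB9, 5 of the 31 genes differed from control EB9: Btg2, Ddb2 and Bbc3 were higher and Aen and Phlda3 lower. Over all genes 15.2% were called, 7.96% higher and 7.2% lower. The median log2 difference was 0.08 over the members and -0.01 over all genes. The arrays of the groups did not overlap for 5 members, where 15.7% of all genes had no overlap. With normexp and quantile normalisation the split was 4 higher and 1 lower. The spread between arrays was wider than in ES cells: the median SD of the members was 0.13 in depleted and 0.12 in control EB9, and 0.09 in depleted and 0.07 in control ES cells.

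Btg2 had 0.41, 0.31, 0.47 and 0.49 in depleted EB9, against 0.15, -0.04, -0.16 and -0.04 in control EB9, 1.36-fold higher (0.44 ± 0.06, adjusted p = 0.000889). Bbc3 had 2.62, 2.36, 2.52 and 2.68 in depleted EB9, against 2.41, 2.07, 2.02 and 2.09 in control EB9, 1.31-fold higher (0.39 ± 0.09, adjusted p = 0.0142). The first Bbc3 control overlapped the depleted arrays, and without the fourth depleted array the adjusted p was 0.0516. Both genes had moved the other way in ES cells. Ddb2 had -0.34, -0.50, -0.37 and -0.23 in depleted EB9, against -0.62, -0.66, -0.65 and -0.65 in control EB9 (0.28 ± 0.08, adjusted p = 0.0282). Its groups did not overlap, but the call was lost without any one of 6 EB9 arrays (adjusted p 0.0535 to 0.0932, the highest without the fourth depleted array). Aen had 1.85, 1.97, 1.70 and 1.79 in depleted EB9, against 2.25, 2.33, 2.19 and 2.39 in control EB9, 1.38-fold lower (-0.46 ± 0.07, adjusted p = 0.00164). Phlda3 had 1.03, 1.15, 1.04 and 0.96 in depleted EB9, against 1.21, 1.34, 1.32 and 1.25 in control EB9, 1.17-fold lower (-0.23 ± 0.05, adjusted p = 0.0119). Aen and Phlda3 are the 2 members that were lower in depleted cells at both stages. With the values normalised as in the authors' table the Phlda3 difference was -0.21 (adjusted p = 0.173).

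No regulator was called in EB9. Trp53 had -3.88, -4.96, -4.85 and -4.84 in depleted EB9, against -4.63, -4.46, -4.81 and -4.52 in control EB9 (-0.03 ± 0.19, adjusted p = 0.949). The first depleted array stood far above the other 3. Mdm2 had 3.14, 2.97, 3.06 and 3.13 in depleted EB9, against 3.05, 3.07, 3.03 and 2.96 in control EB9 (0.05 ± 0.06, adjusted p = 0.644). Mdm4 had -3.49, -3.65, -3.51 and -3.43 in depleted EB9, against -3.57, -3.82, -3.92 and -3.70 in control EB9 (0.23 ± 0.09, adjusted p = 0.0950, and 0.036 without the first EB9 control). Its second, dimmer probe was higher in depleted EB9 by 0.49 (adjusted p = 0.0159).

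The remaining genes with per-array values were not called in EB9. Ccng1 had -1.29, -1.44, -1.22 and -1.51 in depleted EB9, against -1.36, -1.28, -1.34 and -1.26 in control EB9. Trp53inp1 had 0.80, 0.99, 0.82 and 0.81 in depleted EB9, against 0.70, 0.79, 0.70 and 0.64 in control EB9, higher on every depleted array (0.15 ± 0.06, adjusted p = 0.119). Xpc had 1.22, 0.99, 0.94 and 1.15 in depleted EB9, against 1.10, 1.00, 0.91 and 1.06 in control EB9, and the groups interleaved. Polk had -2.28, -2.69, -2.23 and -2.31 in depleted EB9, against -2.36, -2.65, -2.68 and -2.83 in control EB9 (0.25 ± 0.13, adjusted p = 0.233). Zmat3 had -1.51, -0.89, -1.12 and -1.32 in depleted EB9, against -1.30, -0.69, -0.83 and -0.95 in control EB9 (-0.27 ± 0.14, adjusted p = 0.231). Its arrays differed more between slides than between groups, and it was lower in the depleted array on all 4 slides. Dcxr had -3.46, -3.68, -3.82 and -3.60 in depleted EB9, against -3.55, -3.68, -3.84 and -3.74 in control EB9. Cd82 had 3.16, 2.62, 3.01 and 3.10 in depleted EB9, against 3.13, 2.56, 2.69 and 2.81 in control EB9. Dcxr and Cd82 overlapped between the groups, with differences of 0.06 and 0.18.

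With slide as a block 10 of the 31 genes were called in EB9, 8 higher and 2 lower, in place of 5. Over all genes the calls also grew, to 26.7% with the block (13.5% higher, 13.2% lower). The 5 added genes were higher in depleted EB9: Mdm4 (0.23, adjusted p = 0.0128), Gadd45a (0.29, adjusted p = 0.0155), Plk2 (0.37, adjusted p = 0.0378), Fas (0.58, adjusted p = 0.0298) and Trp53inp1 (0.15, adjusted p = 0.0173). Without the block the adjusted p of Plk2 was 0.0502, of Gadd45a 0.0634 and of Fas 0.0744. Without the second control EB9 array Gadd45a and Plk3 were called (adjusted p = 0.00339 and 0.0478), and without the second depleted EB9 array Fas and Plk2 (adjusted p = 0.00374 and 0.0148). Leaving out 1 array gave 3 to 7 calls, the fewest without the fourth depleted EB9 array. With all arrays kept and no block, 15.2% of all genes were called.

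**Figure D3:**
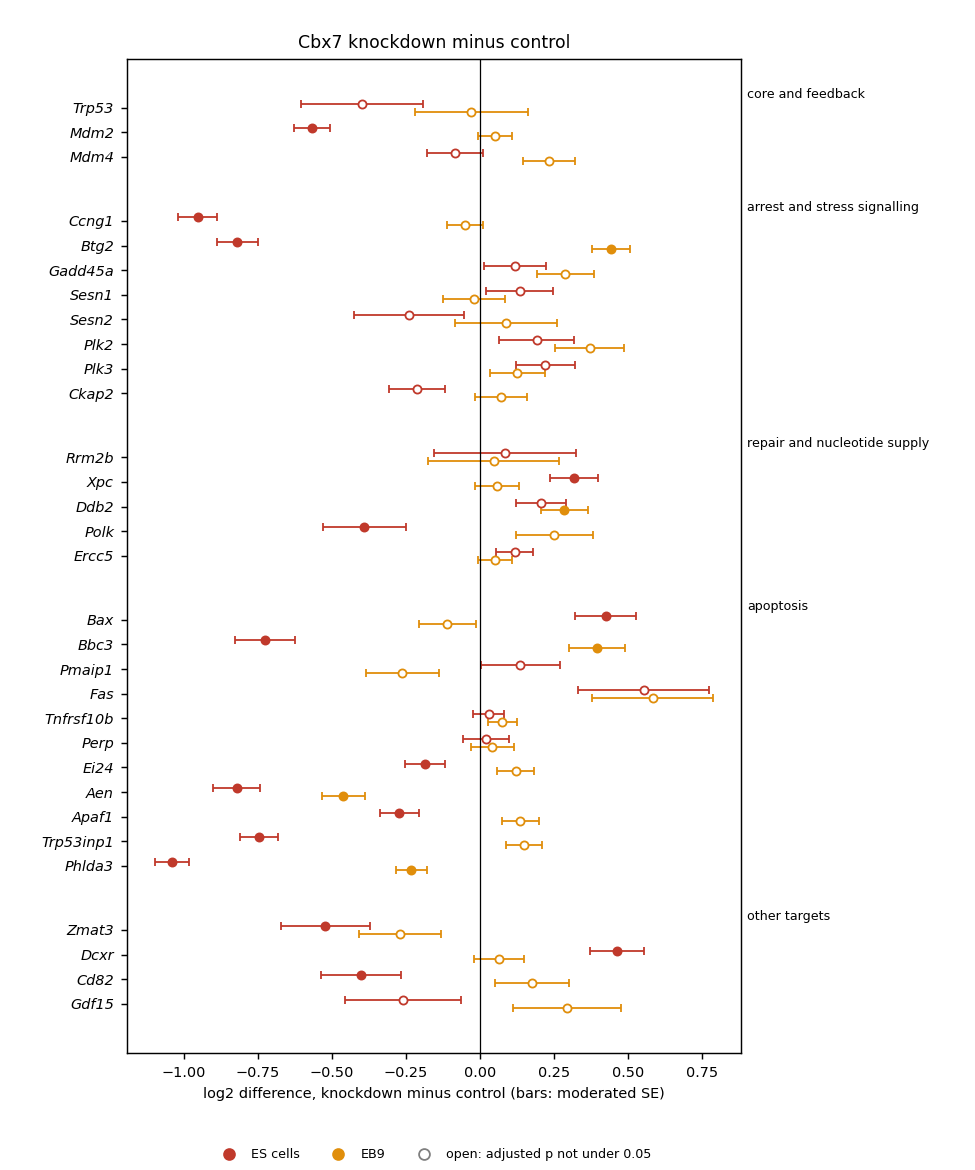
Log2 difference, depleted minus control (horizontal axis), of the 31 tested genes by role, in ES cells (red) and EB9 (orange); bars are the moderated SE and open points were not called. The 12 genes called lower in ES cells lie at or below -0.19, and in EB9 only Aen and Phlda3 are called lower.

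Whether the effect of depletion differed between the stages was tested as the difference in EB9 minus the difference in ES cells. It was called for 13 of the 31 genes, 11 positive and 2 negative, where 29.7% of all genes were called, 12.7% positive and 17% negative. The stage term holds the ES difference, so its count repeats the ES comparison in part. Zmat3 was not called (0.25, adjusted p = 0.413).

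Btg2 had the largest stage term, 1.26 ± 0.09 (adjusted p = 2.58e-06), with 0.44 in EB9 against -0.82 in ES cells. Bbc3 followed with 1.12 ± 0.14 (adjusted p = 7.76e-05), with 0.39 in EB9 against -0.73 in ES cells. In both the sign turned between stages. Ccng1 (0.90 ± 0.09, adjusted p = 1.59e-05), Trp53inp1 (0.90 ± 0.09, adjusted p = 1.65e-05), Phlda3 (0.81 ± 0.08, adjusted p = 1.42e-05) and Mdm2 (0.62 ± 0.08, adjusted p = 0.000177) were lower in depleted ES cells and near control levels or less reduced in depleted EB9. Polk (0.64), Cd82 (0.58), Apaf1 (0.41), Aen (0.36) and Ei24 (0.31) made up the rest of the positive terms. For Bax (-0.53 ± 0.14, adjusted p = 0.0116) and Dcxr (-0.40 ± 0.12, adjusted p = 0.0266) the higher value in depleted ES cells had no counterpart that was called in EB9. Trp53 itself was not called (0.37 ± 0.28, adjusted p = 0.376). Leaving out 1 array ended 5 of these calls: Aen and Polk without the ES control numbered 2 (adjusted p = 0.0632 and 0.0539), Cd82 without that array (0.0662) or any of 9 others, and Ei24 and Dcxr without the ES control numbered 3 (0.0667 and 0.0737) or any of 3 and 2 others. With slide as a block 17 terms were called, Mdm4 (0.35), Ckap2 (0.26), Gdf15 (0.59) and Xpc (-0.24) being added, where 41% of all genes were called in that fit (17.5% positive, 23.5% negative).

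Between the stages most members were lower in EB9 than in ES cells. In control cultures 21 of the 31 genes were lower in EB9 and 5 higher, and in depleted cultures 20 were lower and 8 higher. Over all genes 74.8% were called between the control stages (41.5% lower, 33.3% higher) and 77.9% between the depleted stages (44.2% lower, 33.7% higher). The median log2 difference was -0.68 over the members and -0.14 over all genes in controls, and -0.56 and -0.18 in depleted cultures. Each group of arrays serves in a pair of the 4 comparisons.

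Trp53 averaged -4.60 ± 0.15 (SD, n = 4) in control EB9 and -2.70 ± 0.07 (n = 3) in control ES cells, 3.74-fold lower in EB9 (adjusted p = 1.63e-06). In depleted cultures it was 2.89-fold lower in EB9. Mdm2 was 2.25-fold lower in control EB9 than in control ES cells (log2 difference -1.17 ± 0.06) and 1.47-fold lower in depleted EB9 than in depleted ES cells (-0.56 ± 0.06). Mdm4 differed by -0.56 in controls and by -0.24 in depleted cultures, but its second probe differed by 0.10 and 0.47, so the direction for Mdm4 depends on the probe. The call in depleted cultures was also lost under quantile normalisation (adjusted p = 0.179), in the authors' value table (adjusted p = 0.113) and without any one of 3 arrays (adjusted p up to 0.0764, without the fourth depleted ES array).

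The largest difference was that of Gdf15. It ranged between -4.87 and -3.90 in control EB9, against 0.50 to 0.83 in control ES cells, 32.0-fold lower in EB9 (-5.00 ± 0.20, adjusted p = 4.1e-11), and was 21.8-fold lower in depleted EB9 than in depleted ES cells. Plk3 was 11.1-fold lower in EB9 in controls and 11.8-fold lower in depleted cultures. Aen was 6.01-fold and 4.68-fold lower, Gadd45a 5.14-fold and 4.58-fold, Dcxr 4.27-fold and 5.63-fold, Ccng1 3.94-fold and 2.11-fold, and Phlda3 3.56-fold and 2.03-fold, in controls and in depleted cultures in that order. Zmat3, Trp53inp1, Rrm2b, Ckap2 and Bax were also at least 2-fold lower in control EB9 than in control ES cells. Ei24, Ddb2, Xpc, Ercc5 and Pmaip1 were lower by less than 2-fold in controls.

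Higher in EB9 in both backgrounds were Fas, Cd82, Plk2, Btg2 and Tnfrsf10b. Fas ranged between -0.59 and 0.07 in control EB9, against -4.33 to -4.28 in control ES cells, 16.7-fold higher in EB9 (4.06 ± 0.22, adjusted p = 1.15e-09), and was 17.0-fold higher in depleted EB9 than in depleted ES cells. Cd82 was 4.36-fold and 6.50-fold higher, and Plk2 3.04-fold and 3.45-fold, in controls and in depleted cultures in that order. Btg2 was 1.37-fold higher in control EB9 and 3.29-fold higher in depleted EB9. Tnfrsf10b was 1.09-fold higher in control EB9 (adjusted p = 0.0395), a call lost without any one of 6 arrays (adjusted p up to 0.129, without the ES control numbered 3). Bbc3 was lower in control EB9 than in control ES cells (-0.31 ± 0.10, adjusted p = 0.0139) and higher in depleted EB9 than in depleted ES cells (0.81 ± 0.09, adjusted p = 2.63e-06). Polk (0.55) and Apaf1 (0.55) were called higher in EB9 in depleted cultures and were not called in controls (-0.09 and 0.14), where Apaf1 was called without the first EB9 control (adjusted p = 0.0155). Sesn1, Sesn2 and Perp were called in none of the comparisons, though Sesn1 was higher in control EB9 with slide as a block (0.22, adjusted p = 0.00526), and Perp was lower without the second control EB9 array in controls (adjusted p = 0.0331) or the second depleted EB9 array in depleted cultures (adjusted p = 0.0264).

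**Figure D4:**
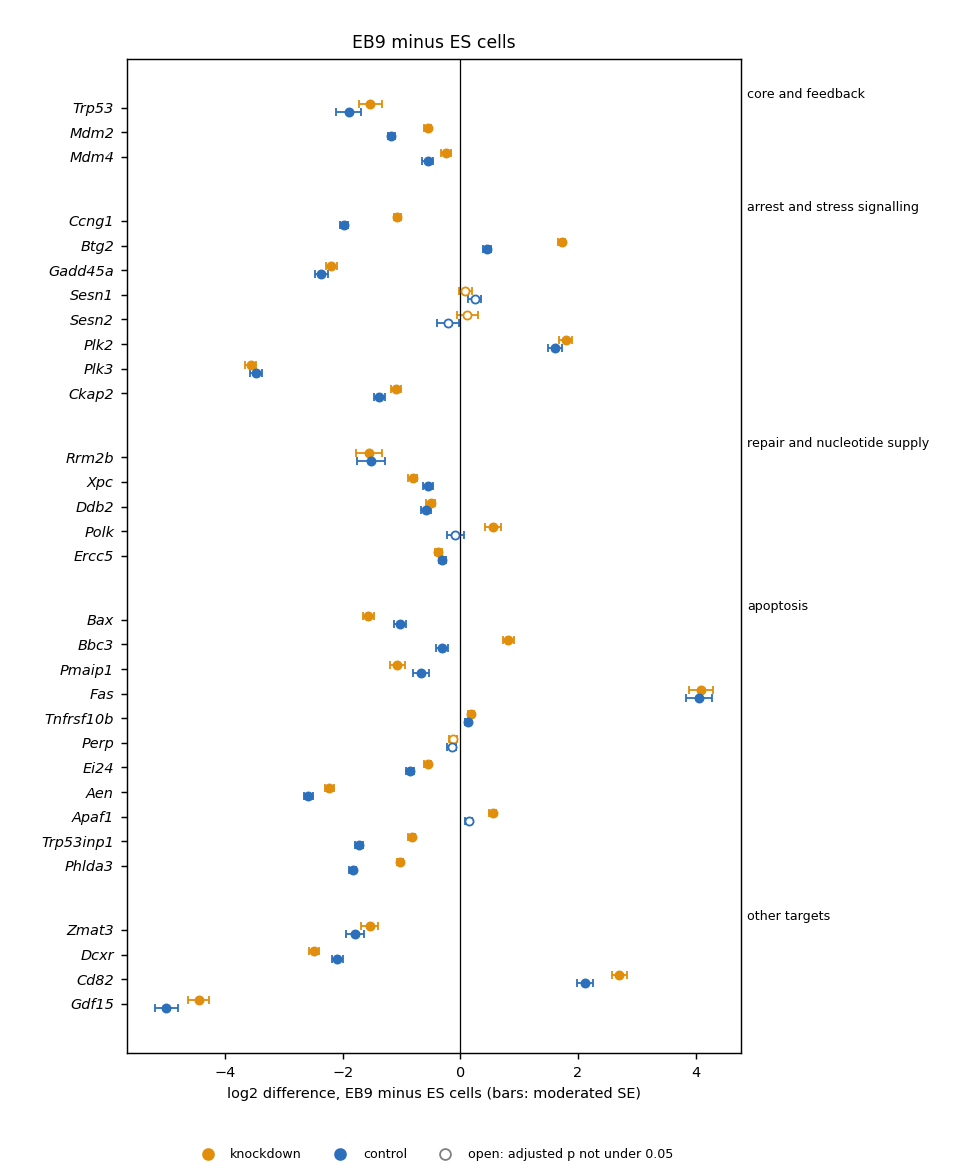
Log2 difference, EB9 minus ES cells (horizontal axis), of the 31 tested genes by role in depleted (orange) and control (blue) cultures; bars are the moderated SE and open points were not called. Most points lie left of 0, Gdf15 and Plk3 lowest, and Fas, Cd82 and Plk2 lie right of 0 in both.

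By role, 7 of 11 tested apoptosis genes were lower and 2 higher in control EB9 (median log2 difference -0.68), and 8 of 13 arrest and repair genes were lower and 2 higher (median -0.55). Over all genes 41.5% were lower and 33.3% higher in control EB9, and 44.2% and 33.7% in depleted EB9. In depleted cultures the counts were 6 lower and 4 higher for apoptosis (median -0.56), and 8 lower and 3 higher for arrest and repair (median -0.51). In EB9, depletion gave 1 higher and 2 lower among apoptosis genes (median 0.08), and 2 higher and none lower among arrest and repair genes (median 0.09). It gave 7.96% higher and 7.2% lower over all genes. The difference between the roles was not tested.

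Other genes of the pathway, taken from lists, gave the following counts. Over all genes 22% were called higher and 16.5% lower in depleted ES cells, and 7.96% and 7.2% in depleted EB9. Of 12 further targets, 3 were higher and 4 lower in depleted ES cells. Cdkn1a, the p21 inhibitor of cyclin-dependent kinases, had -0.54, -0.69, -0.64 and -0.37 in depleted ES cells, against 0.17, -0.10 and -0.01 in control ES cells (-0.58 ± 0.11, adjusted p = 0.00138), with a stage term of 0.88 (adjusted p = 0.000966). Pidd1, a death-domain protein that activates caspase 2, was lower in depleted cells in ES cells (-0.47, adjusted p = 0.000251) and in EB9 (-0.23, adjusted p = 0.0379). Pcna (0.28), Ccnd1 (0.52) and Cdc25c (0.43) were the 3 higher in ES cells.

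The same shares over all genes (22% higher and 16.5% lower in ES cells, 7.96% and 7.2% in EB9) stand beside the next 3 lists. Of 15 kinases and cofactors upstream of p53, 1 was higher and 3 lower in depleted ES cells. Ppm1d, the Wip1 phosphatase that switches p53 off, was among the lower ones (-0.40 ± 0.07, adjusted p = 0.000518). In depleted EB9 the acetyltransferases Ep300 (0.32) and Crebbp (0.33) were higher and none lower. Neither Trp63 nor Trp73, the relatives of p53, was called in either depletion comparison. Of 17 genes of the apoptosis machinery, 6 were higher and 4 lower in depleted ES cells. Bcl2l1, which encodes Bcl-xL, fell most (-0.66 ± 0.08, adjusted p = 2.34e-05), and Bik rose most (0.55 ± 0.13, adjusted p = 0.00449). In depleted EB9 none was higher and 5 were lower, among them Bak1, Cycs, Bid and Casp9, with log2 differences between -0.37 and -0.20. Bak1, Bid and Casp9 had been higher in depleted ES cells.

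Markers of other cells and of cycling were read in the same arrays. Over all genes depletion gave 22% higher and 16.5% lower in ES cells, and 7.96% and 7.2% in EB9. Between the stages 33.3% of all genes were higher and 41.5% lower in control EB9, and 33.7% and 44.2% in depleted EB9. Of 8 ES cell markers, Pou5f1 was higher and Zfp42 and Klf4 lower in depleted ES cells, and their summed signal, in multiples of the 75th percentile, was 332 to 396 in depleted and 356 to 367 in control ES cells. In depleted EB9 3 of the 8 were higher than in control EB9 and none lower. All 8 were lower in EB9 than in ES cells, and in EB9 the sums were 20 to 24 in depleted and 16.5 to 21.4 in control cultures. Of 8 fibroblast markers, 7 were higher in EB9 in both backgrounds. The other 1 was lower, by log2 differences of -3.842 in controls and -4.645 in depleted cultures. The sums over all 8 were 105 to 165 in depleted and 98.6 to 147 in control EB9. In ES cells the sums were 4.58 to 5.30 in depleted and 4.05 to 4.44 in control cultures. Depletion gave 1 of the 8 called lower and none higher in ES cells, and 1 lower and none higher in EB9. Col3a1, Postn, Dcn and Lum were not well above background on any ES array. Of 6 proliferation genes, 4 were higher and 1 lower in depleted ES cells, with sums of 79.8 to 86.5 in depleted and 73.1 to 74.8 in control ES cells. Of 11 tested embryoid body lineage markers, 3 were higher and 2 lower in depleted ES cells, with log2 differences up to 1.20. In depleted EB9 none was higher and 2 were lower, 1 of them by a log2 difference of -2.79. These markers summed to 25.8 to 31.4 in depleted and 24.1 to 28.5 in control EB9, and to 4.27 to 5.01 in depleted and 4.03 to 5.49 in control ES cells. The part that cell makeup and cycling have in the p53 gene differences was not tested.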

How the data were processed

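Total RNA was labelled with Cy3 and read on 1-colour Agilent arrays, 15 in all. Per the file headers, Feature Extraction 10.7.3.1 made the processed signal intensity, which is background-subtracted, and the probe coordinates are on mm9. The authors' deposited table of log2 values equals normexp (offset 50) and quantile normalisation of the same arrays to within 0.000154, and served as an alternative.

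From the intensities, log2 of the processed signal minus log2 of each array's 75th percentile over non-control features was computed, outlier features were left out and spots of a probe were averaged. A probe was kept if it was well above background on at least 3 arrays of a group (27250 of 39429), and the brightest kept probe stood for a gene (21184 genes). Probe names were updated through RefSeq by accession (26424 probes), current symbol (3983) or older symbol (826), and 8196 kept the file's name. limma 3.58.1 in R 4.3.3 fitted 4 group means over all arrays, with residual spread shared (11 degrees of freedom), eBayes moderation and Benjamini-Hochberg adjustment over all genes in each of 5 comparisons. The fit was tested on simulated data with independent noise on each array, so that test does not cover the correlation of arrays on the same slide. For the 79 genes with a missing value the fit used the remaining arrays. The number of arrays limits the precision.

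The members and lists were chosen with earlier results of these data known. Per-array values are given for Trp53, Mdm2 and Mdm4, for the called members with the 3 largest changes of each role, and for the 5 with the largest stage term; Bax and others are given by range. The lists were further p53 targets, upstream kinases and cofactors, the p53 family, apoptosis machinery, ES cell, embryoid body lineage and fibroblast markers, and proliferation genes. Alternatives were the normalisation, the filter, the probe rule, slide and replicate number as blocks, array weights, the 2 groups alone, and each array left out. Of slide and number, slide is what arrays share: over pairs of arrays of different groups, the median correlation of deviations from the group mean was 0.43 on the same slide and 0.34 for the same number, and for ES control pairs 0.44 by slide and -0.34 by number. Some genes of the pathway lists enter the counts and are not reported here by name.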

Additional observations from a re-analysis of the deposited data

Results flagged for a closer look

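Single arrays stood far from the other 3 of their group in 5 of 93 groups of 4 arrays, by Dixon's test, where chance gives about 1 in 20. These are the first depleted EB9 array for Trp53 (-3.88), the second depleted ES array for Btg2 (-1.21), the second depleted EB9 array for Polk (-2.69) and for Trp53inp1 (0.99), and the second control EB9 array for Pmaip1 (0.78), all as log2 of the signal over the 75th percentile of the array. Without the first depleted EB9 array the Trp53 difference between depleted and control EB9 was -0.28.

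The effect of depletion differed between EB9 and ES cells, by the test of the difference itself, for 13 of the 31 tested members, where 29.7% of all genes were called. The term holds the ES difference, and leaving out 1 array could end the calls of Aen, Polk, Cd82, Ei24 and Dcxr. EB9 minus ES, the log2 terms were 1.26 for Btg2, 1.12 for Bbc3, 0.90 for Ccng1, 0.90 for Trp53inp1, 0.81 for Phlda3, 0.64 for Polk, 0.62 for Mdm2, 0.58 for Cd82, 0.41 for Apaf1, 0.36 for Aen and 0.31 for Ei24. The terms were -0.53 for Bax and -0.40 for Dcxr.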

How the results depend on the processing

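The calls in depleted against control ES cells held under all 25 alternatives run for single genes for 11 of 15 members (Mdm2, Ccng1, Btg2, Xpc, Bax, Bbc3, Aen, Apaf1, Trp53inp1, Phlda3 and Dcxr), in EB9 for 2 of 5 (Btg2 and Aen), and under the 24 run for the stage term for 8 of 13 terms. These alternatives are not all distinct. The authors' table and normexp with quantile normalisation gave the same results and are counted apart. Leaving out an array of 1 stage changes only the spread, and not the difference, at the other stage. Array weights raised the member calls to 24 in ES cells and 12 in EB9, and the calls over all genes to 14011 in ES cells, 6481 in EB9 and 10097 for the stage term. In EB9 slide as a block gave 10 member calls and 5664 over all genes. With the replicate number as a block in place of slide, the members called were 14 in ES cells and 10 in EB9, and 15 for the stage term, and over all genes 8502, 3728 and 6925. Fitting the 2 EB9 groups alone gave 2 member calls and 1133 over all genes. Leaving out 1 array gave 11 to 17 member calls in ES cells, 3 to 7 in EB9 and 10 to 14 stage terms, and 1807 to 4393 calls over all genes in EB9. With all arrays kept, 38.5% of all genes were called in ES cells, 15.2% in EB9 and 29.7% for the stage term. Another normalisation moved the median of all genes by over 0.1 for EB9 against ES cells in depleted cultures, to -0.06 with normexp and quantile and -0.08 with quantile alone, against -0.18. Without the filter it moved to 0.11, against -0.14, for EB9 against ES cells in controls, and to -0.15, against -0.04, for the stage term.

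The sign turned in 48 single-gene values, 1 of them of a called gene: Mdm4 for EB9 against ES cells in depleted cultures, with the mean of its probes (0.1147). With normexp and quantile, as in the authors' table, the signs turned of Tnfrsf10b (-0.0064) and Perp (-0.0152) in ES cells and of Polk between control stages (0.0039). Mdm4 in ES cells turned with the mean of its probes (0.0187). Array weights turned Mdm4 (0.0561) and Rrm2b (-0.1922) in ES cells, Sesn1 (0.0509) and Rrm2b (-0.0433) in EB9 and the stage term of Rrm2b (0.1489). Quantile normalisation put the stage terms of Fas at 0 and of Perp at -7e-04. With 1 array left out, Rrm2b ranged over -0.0592 to 0.2386 and Perp over -0.026 to 0.0526 in ES cells. In EB9 the ranges were -0.2797 to 0.08 for Trp53, -0.0894 to 0.0737 for Sesn1, -0.0148 to 0.2416 for Sesn2, -0.0785 to 0.1995 for Rrm2b and -0.0146 to 0.0893 for Perp. For the stage term they were -0.157 to 0.005 for Plk3, -0.193 to 0.1159 for Rrm2b, -0.1706 to 0.2498 for Fas and -0.034 to 0.0698 for Perp. The cause of these changes was not tested. The model was also fitted to all kept probes, and results at single probes are given for members and Cbx7 only. Eda2r had no signal well above background, so its changes could not be read.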
